A study of Mus musculus with 8 samples.

Results

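The nuclear-encoded genes of the mitochondrial respiratory chain were examined in m6ARIP-seq peak lists of mouse liver. In m6ARIP-seq, mRNA fragments that an antibody to N6-methyladenosine (m6A) pulls down (IP) are sequenced beside the same fragments before the pull-down (input). A gene was taken when its name in the lists started with Ndufa, Ndufb, Ndufc, Ndufs or Ndufv (complex I), Uqcr (complex III), Cox4 to Cox8 (complex IV) or Atp5 (complex V), or was Sdha, Sdhb, Sdhc or Sdhd (complex II), Cyc1 or Cycs. The rule also takes assembly factors (Ndufaf) and tissue isoforms, and Ndufa4 and Ndufa4l2 were counted with complex IV. The rule uses names and no measured value, but it was set with earlier results of these data known. The rule names 99 genes, and 46 of them had a peak in at least 1 of 3 lists, of 11569 genes with a peak in all. The Wtap flox/flox list held 31 of their peaks in 25 genes (of 15635 peaks in 9020 genes), the Wtap-HKO list 49 peaks in 42 genes (of 19185 peaks in 10634 genes), and the list of differential peaks 26 peaks in 24 genes (of 3870 peaks in 3227 genes).

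All mice were C57BL/6, on normal chow and 8 weeks old. The control group carried floxed Wtap alleles without Cre (Wtap flox/flox, called control here). The other group (Wtap-HKO) carried the same floxed alleles with an Alb-Cre transgene, which acts in hepatocytes, so that the other cells of the liver keep Wtap. Wtap encodes a regulatory protein of the complex that writes m6A on mRNA. For each genotype 2 IP and 2 input libraries were made (8 in all). Every replicate held RNA pooled from several mice.

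The lists give 1 value per peak and genotype, with both replicates already combined. The values therefore have no SD, no test could be made, and differences between the genotypes are given as descriptions with no replicate error. The depth of the libraries is not in the lists, so no smallest detectable enrichment can be stated, and a gene without a listed peak may carry m6A below it. The fold enrichment of a peak is IP over input, relative to the transcripts' own abundance. It is not an expression level, and in whole liver a change in the mix of cells cannot be told apart from a change within hepatocytes. Of the 8 hepatocyte marker genes looked up, 6 had a peak in a genotype list (5 in controls, 4 in Wtap-HKO), and the heart and muscle isoforms Cox6a2, Cox7a1 and Cox8b had none. Non-hepatocyte markers with a peak numbered 4 and 5 of 6 for macrophages, 3 and 3 of 4 for sinusoidal endothelium, and 1 and 3 of 4 for stellate cells, in controls and Wtap-HKO in that order. Matched peaks of these markers, present in both genotypes, had a higher fold enrichment in Wtap-HKO in 4 of 6 cases for macrophages (median log2 ratio 0.61), 4 of 4 for endothelium (0.56) and 2 of 2 for stellate cells (1.22), and in 1 of 3 for hepatocytes (-1.07). The part of the cell mix in the results below was not tested. Wtap itself had 3 peaks in each genotype list, which shows neither its level nor the deletion.

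The respiratory chain passes electrons from NADH (complex I) and succinate (complex II) through ubiquinone to complex III, from there by cytochrome c to complex IV, and on to oxygen. Complexes I, III and IV pump protons across the inner mitochondrial membrane, and complex V, the ATP synthase, makes ATP from the gradient. Most subunits are encoded in the nucleus by short, strongly transcribed housekeeping genes, while a few core subunits are encoded in mitochondrial DNA. In liver the chain serves fatty acid oxidation, gluconeogenesis and urea synthesis.

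More of these genes had a peak in Wtap-HKO than in control livers. Of the 45 genes listed in 1 or both genotypes, 22 had peaks in both, 20 (44.4%; 95% Wilson interval, for counting error only, 30.9 to 58.8) had one in the Wtap-HKO list only, and 3 (6.67%; 2.29 to 17.9) in the control list only. Over all 11558 genes listed in 1 or both, 22% were listed in Wtap-HKO only and 7.99% in controls only. The genes in the control list only were Ndufa2, an accessory subunit of complex I (fold enrichment 1.8), Ndufaf2, an assembly factor of complex I (2.14), and Atp5s, a gene named for a coupling factor of the ATP synthase (7.9). Of the 39 structural subunits with any peak, 18 were in both genotypes, 19 in Wtap-HKO only and 1 in controls only. The remaining subunit, Ndufs5, was in the differential list alone.

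**Figure D1:**
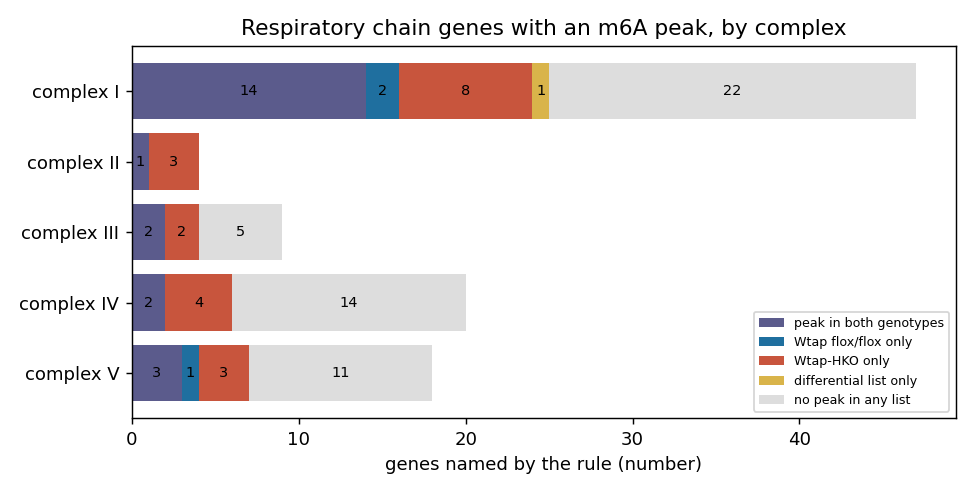
Number of genes named by the rule in each respiratory chain complex (x axis), split by the list that holds a peak of the gene. Complex II has a peak in all 4 of its genes and complex IV in 6 of 20; the genes listed in Wtap-HKO only (8, 3, 2, 4 and 3 in complexes I to V) outnumber those listed in Wtap flox/flox controls only (2, 0, 0, 0 and 1).

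The peaks of these genes were low in rank. Their median fold enrichment was 2.99 in controls (31 peaks, range 1.42 to 18.9), against 5.51 over all peaks, and their median percentile rank within that list was 18.9. In Wtap-HKO the median was 4.37 (49 peaks, range 1.35 to 25.1), against 5.93 over all peaks, at a median percentile rank of 34.2. Peaks covered a median of 207 exonic bases in controls and 181 in Wtap-HKO. Only 5 genes in controls and 6 in Wtap-HKO had more than 1 peak.

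**Figure D2:**
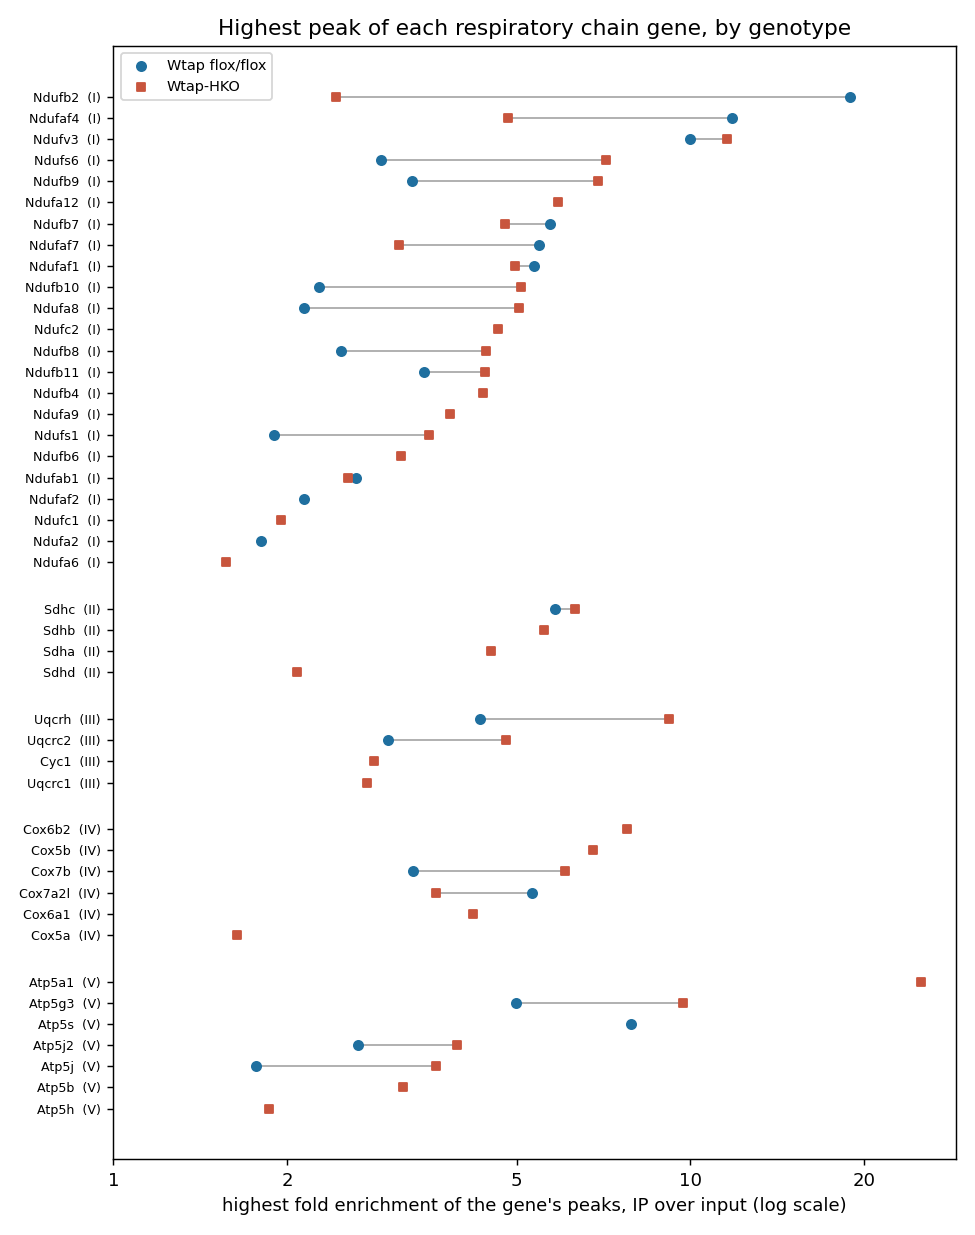
Highest fold enrichment (IP over input, log scale, x axis) among the peaks of each gene described here (y axis, complex in parentheses) in Wtap flox/flox controls (circles) and Wtap-HKO (squares). A missing symbol means no listed peak, a line joins the genotypes of a gene with both, and the ends of a line need not be the same peak (the control value of 18.9 for Ndufb2 lies outside its RefSeq gene span).

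Complex I is the NADH dehydrogenase, with core subunits that carry the flavin and iron-sulfur clusters and accessory subunits around them. The rule names 47 of its genes, of which 16 had a peak in controls and 22 in Wtap-HKO. Ndufs1, the largest iron-sulfur subunit, had 1 peak at the 5′ end of the gene (within 200 nt of it, here and below) with a fold enrichment of 1.9 in controls and 3.53 in Wtap-HKO, a log2 ratio of 0.89.

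The Ndufb subunits belong to the membrane arm of complex I, and 8 of 11 had a peak, 6 in both genotypes. Ndufb9 had 3.3 in controls and 6.91 in Wtap-HKO (log2 ratio 1.07), and Ndufb10 had 2.27 and 5.09 (1.16), both at the 5′ end. Ndufb8 had 2.48 in controls and 4.43 in Wtap-HKO (0.84), and Ndufb2 had 1.42 and 2.43 (0.78). Both peaks of Ndufb11 were higher in Wtap-HKO, with 3.45 and 4.4 at the 5′ end (0.35) and 1.52 and 2.64 in the next part of the gene (0.80). Ndufb7 went the other way at its 5′ end, with 5.71 in controls and 4.77 in Wtap-HKO (-0.26), whereas its peak at the 3′ end had 1.79 and 2.16 (0.27). Ndufb4 (4.37) and Ndufb6 (3.15) were listed in Wtap-HKO only, each at the 5′ end. The Ndufb4 peak was among the weakest calls of the set (log10 false discovery rate -4.2). A further Ndufb2 peak, with 18.9 in controls and none in Wtap-HKO, lay 3090 nt past the 3′ end of the gene as RefSeq draws it, and its assignment to Ndufb2 is uncertain.

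Among the Ndufa and Ndufs accessory subunits, Ndufs6 had the largest ratio of the set, with 2.91 in controls and 7.15 in Wtap-HKO (log2 ratio 1.30). Ndufa8, which sits on the intermembrane side, followed with 2.14 and 5.04 (1.24). Both peaks lay at the 5′ end. Ndufa12 (5.89), Ndufa9 (3.84) and Ndufa6 (1.57) were listed in Wtap-HKO only, with an edge within 38 nt of the 5′ end in each case. Ndufc2 (4.64) and Ndufc1 (1.95), subunits of the membrane arm, were also listed in Wtap-HKO only. Ndufab1, the mitochondrial acyl carrier protein, had 1 peak per genotype at different places, with 2.63 at 323 nt from the 3′ end in controls and 2.55 at 22 nt from the 5′ end in Wtap-HKO. Ndufv3 had 2 peaks in controls (10 and 2.11), and both overlapped 1 peak of 1080 bases in Wtap-HKO (11.6), away from either end of the gene. RefSeq names pseudogenes after Ndufs6 (Ndufs6b), Ndufa12, Ndufab1 and Ndufs5, so these values are uncertain as to reads shared with the copies.

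The assembly factors of complex I build the enzyme but are not part of it, and 4 of 8 had a peak. Ndufaf4 had 3 peaks in controls. At the 5′ end (chr4:24898113-24898291, plus strand) its fold enrichment was 2.19 in controls and 4.84 in Wtap-HKO, a log2 ratio of 1.14. In the middle of the gene (chr4:24901696-24902023) it was 11.8 and 4.69, a log2 ratio of -1.33 and the lowest ratio of the set. The third peak (chr4:24903393-24903512) had 3.65 in controls and no overlapping peak in Wtap-HKO. The same gene thus had higher enrichment at its start and lower enrichment farther along in Wtap-HKO livers. Ndufaf7, a protein arginine methyltransferase, had 5.47 and 3.13 (-0.81) late in the gene, and Ndufaf1 had 5.35 and 4.97 (-0.11). The Ndufaf1 peak spanned 1 exon block in controls and reached a second block at the 5′ end in Wtap-HKO.

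Complex II, succinate dehydrogenase, is the only complex encoded wholly in the nucleus. All 4 of its genes had a peak in Wtap-HKO and 1 in controls. Sdhc, a membrane anchor, had peaks over the same 3 exon blocks in both genotypes, with 5.83 and 6.32 (log2 ratio 0.12). Sdha, the flavoprotein (4.52), Sdhb, the iron-sulfur subunit (3.65 at the 5′ end and 5.57 farther along), and Sdhd, the other anchor (2.08), were listed in Wtap-HKO only. The log10 false discovery rates of these 4 peaks were -5.91, -15.7, -4.58 and -43.1, so the Sdha and second Sdhb peaks were among the weakest calls of the set.

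In complex III, the cytochrome bc1 complex, 4 of 9 genes had a peak and none was lower in Wtap-HKO. Uqcrh, the hinge protein, had 4.32 in controls and 9.19 in Wtap-HKO (1.09), although RefSeq names a pseudogene after it. Uqcrc2, a core protein, had 2.99 and 4.8 (0.68). Uqcrc1, the other core protein (2.75), and Cyc1, the heme subunit cytochrome c1 (2.83), were listed in Wtap-HKO only. All 4 genes had their peak at the 5′ end. Cycs, cytochrome c, had no listed peak.

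In complex IV, cytochrome c oxidase, 6 of the 20 genes named by the rule had a peak, the smallest share of any complex. The 20 include 8 tissue isoforms, of which only Cox6b2 had a peak, so this rank depends on the naming rule. Cox7b had 3.31 in controls and 6.07 in Wtap-HKO over the same 3 exon blocks (0.87). Cox5a (1.64), Cox5b (6.78) and Cox6a1 (4.2) were listed in Wtap-HKO only, as was Cox6b2 (7.77), an isoform best known from testis. A pseudogene in RefSeq carries the name of Cox5b, and the Cox5b peak was among the weakest calls (log10 false discovery rate -5.32). Cox7a2l, which joins complexes III and IV into supercomplexes, had 5.31 in controls and 3.63 in Wtap-HKO (-0.55), in a peak near the 3′ end. Cox4i1, Cox6b1, Cox6c, Cox7a2, Cox7c, Cox8a and Ndufa4, which are not among the tissue isoforms, had no listed peak.

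In complex V, 7 of 18 genes had a peak. Its catalytic head (F1) was represented in Wtap-HKO only. Atp5a1, the alpha subunit, had the highest fold enrichment of the set, 25.1 (chr18:77774236-77774415, plus strand; log10 false discovery rate -24.2), and Atp5b, the catalytic beta subunit, had 3.18. In the membrane part (Fo) and stalk, Atp5g3, a copy of the c subunit, had 4.99 in controls and 9.71 in Wtap-HKO (0.96) over the same 3 exon blocks. Atp5j, coupling factor 6, had 1.77 and 3.63 (1.04), and 2 more peaks toward its 5′ end in Wtap-HKO only (2.61 and 2.01). Atp5j2, the f subunit, had 2.66 and 3.94 (0.57), and Atp5h, the d subunit of the stalk, was listed in Wtap-HKO only (1.86). These matched peaks of Atp5g3, Atp5j and Atp5j2 lay 1138 nt or more of gene span from the 5′ end.

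Set against each other by position, 25 of 31 control peaks (80.6%; 63.7 to 90.8) overlapped a Wtap-HKO peak by at least 1 exonic base, and 19.9% of all control peaks had no such overlap. Of the 49 Wtap-HKO peaks, 24 (49%; 35.6 to 62.5) overlapped a control peak, and 35.3% of all Wtap-HKO peaks overlapped none. Over all peaks the overlapping shares were 80.1% and 64.7%. The first share of the set is thus close to that of the whole list, and the second is lower.

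Peaks that overlapped 1 to 1 gave 23 pairs in 20 genes, and 18 of them had the higher fold enrichment in Wtap-HKO, against 50.4% of all 10499 pairs. Their median log2 ratio of Wtap-HKO over controls was 0.80 (distribution-free 95% interval of the median, over peaks and not over mice, 0.27 to 1.04), against 0.01 over all pairs. More than 2-fold higher were 7 of 23, against 14.9% of all pairs, and more than 2-fold lower was 1 of 23, the middle peak of Ndufaf4, against 12.4%. The structural subunits gave 17 higher and 1 lower of 18 pairs, with a median of 0.86. The assembly and supercomplex factors gave 1 higher and 4 lower of 5 pairs, with a median of -0.55. The groups also differed in their control values. The median control fold enrichment was 2.79 for the structural pairs, 5.35 for the factor pairs and 5.8 over all pairs. The part of this starting enrichment in the ratios was not tested.

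**Figure D3:**
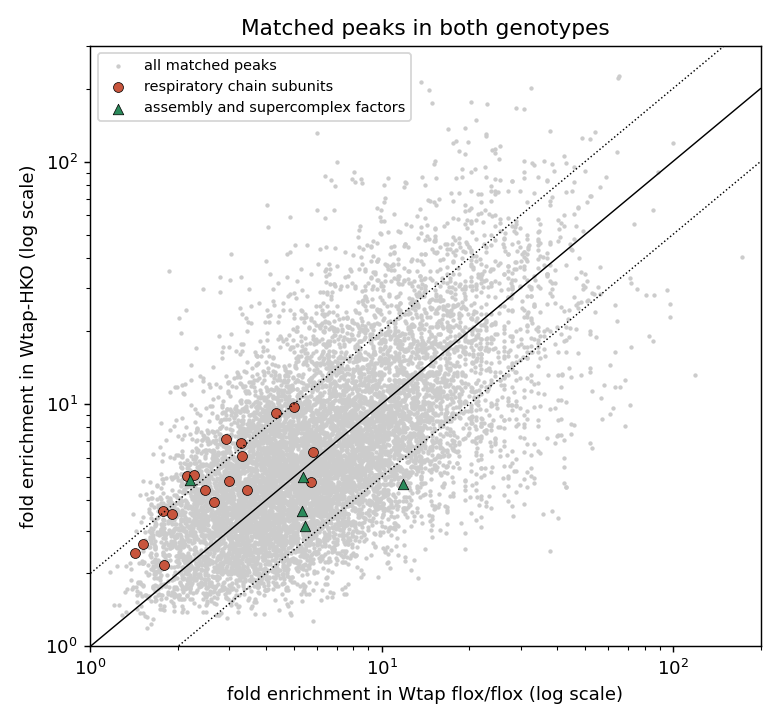
Fold enrichment in Wtap flox/flox controls (x axis) and Wtap-HKO (y axis), both on log scales, of the 10499 matched peaks of all genes (grey), of 18 matched peaks of respiratory chain subunits (circles) and of 5 of assembly and supercomplex factors (triangles). The solid line marks equal values and the dotted lines 2-fold differences; 17 of 18 circles and 1 of 5 triangles lie above the solid line.

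These pairs were then split by position in the gene. A peak was called near the 5′ end when an edge lay within 200 nt of the RefSeq gene start, counted along the gene span. Among the 15 pairs with such a peak in either genotype, 13 were higher in Wtap-HKO and the median log2 ratio was 0.87. Over the 1410 such pairs of all genes, 85.2% were higher and the median was 0.82. The respiratory chain pairs at the 5′ end therefore had a median close to that of 5′ peaks in general. Of the 8 other pairs, 5 were higher, with a median of 0.42, against a median of -0.10 over 9089 pairs of all genes. The 5 structural pairs among them, of Atp5g3, Atp5j, Atp5j2, Ndufb7 and Ndufb11, had log2 ratios of 0.27 to 1.04. The 3 of Cox7a2l, Ndufaf7 and Ndufaf4 were the lower ones. The median control fold enrichment was 1.79 for those 5 structural pairs, against 6.17 over the 9089 pairs of all genes. The Ndufb11 pair lay 351 nt (control peak) and 322 nt (Wtap-HKO peak) from the 5′ end. This split of the pairs was not repeated at another limit.

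**Figure D4:**
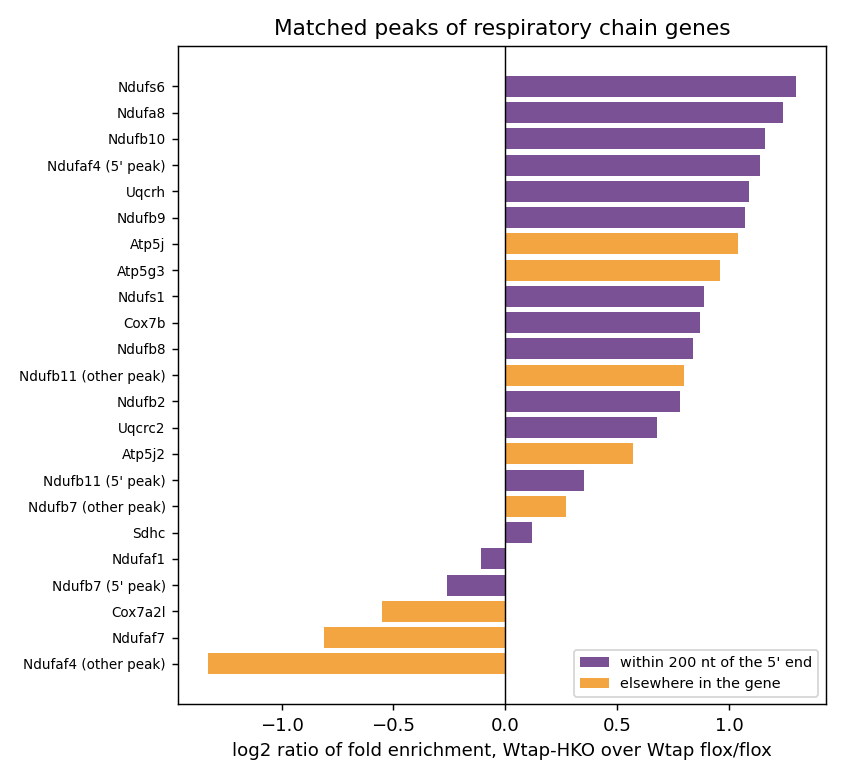
Log2 ratio of the deposited fold enrichment, Wtap-HKO over controls (x axis), for the 23 matched peaks, coloured by whether either peak lay within 200 nt of the 5′ end of the gene. The ratios run from -1.33 (Ndufaf4, middle of the gene) to 1.30 (Ndufs6), and 2 of 15 bars at the 5′ end and 3 of 8 others point left.

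Peaks of this set lay near the 5′ end more often than peaks in general. A listed peak gives a stretch that the antibody enriched, not the modified base within it. The share was 14 of 31 (45.2%; 29.2 to 62.2) in controls and 30 of 49 (61.2%; 47.2 to 73.6) in Wtap-HKO, against 10.7% and 18.1% of all placed peaks. These genes are short, with a median span of 7987 nt in controls against 24117 nt for all genes with a peak, and among all genes of up to 10000 nt the shares were 17.1% and 26.9%. The part of gene length in the shares of the set was not tested. Near the 3′ end lay 4 of 31 (12.9%) and 3 of 49 (6.12%) peaks, against 10.1% and 8.32% of all peaks. Among all genes of up to 10000 nt these shares were 20.2% and 15.8%. Of the 25 Wtap-HKO peaks that overlapped no control peak, 15 (60%) lay near the 5′ end, against 27.3% over all genes.

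**Figure D5:**
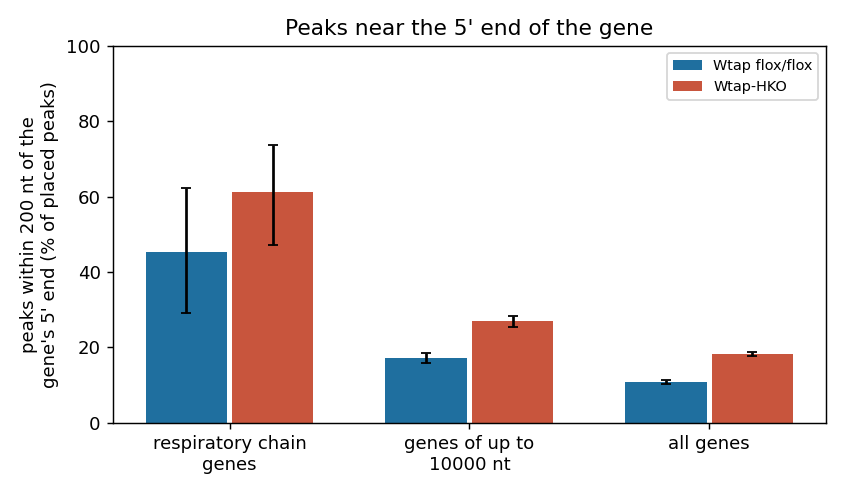
Share of peaks within 200 nt of the 5′ end of the gene (y axis, percent) for the respiratory chain genes, for all genes spanning up to 10000 nt and for all genes, in both genotypes. Bars carry 95% Wilson intervals for counting error; the respiratory chain values are 45.2% in controls and 61.2% in Wtap-HKO.

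The first transcribed bases of these genes were read from RefSeq (GRCm38.p6), where 37 of the 46 genes had an entry, with 38 starts. The letters GGACT, a form of the sequence in which m6A is most often found, were in the first 50 bases of 5 starts (13.2%; 5.75 to 27.3), against 5.76% of all 32851 starts. The shorter GGAC, which every GGACT contains, was in 8 (21.1%), against 18.9%. The letters AAGATGGC were in 5 starts (13.2%), against 0.865%. They match the core of the motif of the transcription factor YY1, and they also contain ATG, the letters of a start codon. Which role they have in these genes was not tested. These 3 strings of letters were searched on the transcribed strand. In the window from 250 bases before to 50 after the start, on both strands, GCGCATG of the NRF1 site was in 23.7% of the set against 3.91%, CCGGAAG of the ETS and GABP site in 23.7% against 8.86%, and TATAAA in 2.63% against 13.6%. These are counts of letters, not of bound sites.

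The 5 starts with AAGATGGC are shown because this element was more frequent in the set than over all starts and can be placed against the peaks, each as 30 transcribed bases with the element in capitals.
Ndufs6: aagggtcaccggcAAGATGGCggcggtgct
Ndufb8: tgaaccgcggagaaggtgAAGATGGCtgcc
Ndufa9: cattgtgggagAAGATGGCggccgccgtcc
Ndufc1: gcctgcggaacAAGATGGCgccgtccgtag
Atp5j2: accaggacttcAAGATGGCgtcactcggtg
They lie on the minus strand of GRCm38.p6, at chr13:73328433-73328462 (Ndufs6), chr19:44555393-44555422 (Ndufb8), chr6:126849097-126849126 (Ndufa9), chr3:51408915-51408944 (Ndufc1) and chr5:145191500-145191529 (Atp5j2). The Ndufs6 and Ndufb8 elements were inside the peak of both genotypes (2.91 and 7.15 for Ndufs6, 2.48 and 4.43 for Ndufb8). The Ndufa9 element was inside the peak of the differential list only, and those of Ndufc1 and Atp5j2 were inside no peak.

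Of the 5 starts with GGACT, those of Ndufa8 and Ndufaf1 lay inside a peak and are shown for that reason, again as 30 transcribed bases of the minus strand, with GGACT in capitals.
Ndufa8: ggccagccaaaggGGACTtgaaggagacgg
Ndufaf1: agaaaagtagaaGGACTattcgggggaagc
The window of Ndufa8 is chr2:36049289-36049318, and its GGACT was inside the peak of both genotypes, with 2.14 and 5.04. The window of Ndufaf1 is chr2:119662800-119662829, and its GGACT was inside the peak of the differential list only. The GGACT of Atp5j2, Ndufb2 and Sdhd was inside no peak.

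The list of differential peaks came from the authors' own comparison of the genotypes and was used for positions and enrichment only. It named 24 of the 46 genes (52.2%; 38.1 to 65.9), against 27.9% of all genes with a peak in any list. By position, 18 of 31 control peaks overlapped a differential peak, against 22.3% of all, and 24 of 49 Wtap-HKO peaks, against 18.1%. Near the 5′ end lay 18 of the 26 differential peaks (69.2%), against 19.6% over the whole list and 28.1% for its genes of up to 10000 nt. Of the 26, 16 (61.5%) overlapped peaks of both genotypes, 7 (26.9%) a Wtap-HKO peak only, 1 (3.85%) a control peak only, and 2 (7.69%) neither. Over all 3870 differential peaks these shares were 65.9%, 15.3%, 17.9% and 0.879%, in that order. The first share of the set is thus close to that of the whole list.

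Of all matched pairs, differential or not, 50.4% were higher in Wtap-HKO, and of those near the 5′ end 85.2%. The share over all differential peaks was not computed. Where both genotypes had a peak under the differential one of this set, 12 of 16 had the higher deposited enrichment in Wtap-HKO. The 4 lower ones belonged to Cox7a2l, Ndufaf1, Ndufaf4 (the middle peak) and Ndufb7 (the 5′ peak). The 7 with a Wtap-HKO peak only belonged to Atp5b, Cox5a, Ndufa9, Ndufb6, Sdhb, Sdhd and Uqcrc1. The one with a control peak only was the third of Ndufaf4. The 2 over no genotype peak were those of Ndufs5 (1.57 over both genotypes) and Atp5a1 (1.24), whose differential peak ended 28 nt before its Wtap-HKO peak of 25.1. The large Wtap-HKO value of Atp5a1 was thus not covered by the differential list.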

How the data were processed

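Peaks came from m6ARIP-seq of livers of 8-week-old mice, with 2 IP and 2 input libraries per genotype. Reads had been cleaned with fastp 0.19.11 and aligned to GRCm38 with BWA 0.7.12, per the labels. The authors called peaks with exomePeak and deposited 3 lists with replicates combined; how they were combined is not given in the sources used here. The fold enrichment the authors deposited is a ratio on a linear scale, IP over input, and its library scaling is not given. The false discovery rate is a log10 score that the authors deposited. The differential list also holds 3 columns of the authors' own comparison (a log2 fold change, a p-value and a false discovery rate), which were not read. The library kit is not stated to keep strand.

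Lists were read with pandas 2.3.3 and numpy 2.4.6 under Python 3.11.15. Figures were drawn with matplotlib 3.10.9. Starts are 1-based. Overlap meant at least 1 exonic base on the same strand. Gene spans and start sequences came from RefSeq (GRCm38.p6) and were matched by symbol or synonym; spans include introns. Overlaps and distances were tested on simulated data and recovered as planted. Wilson intervals (95%) cover counting error only, and peaks of 1 gene share their source.

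The members and lists were chosen with earlier results of these data known. Genes were named by rule: all with a differential peak, the 3 with the highest enrichment per complex and list, the 5 largest rises and falls, genes of 1 list only and complex II. The other genes named have no listed peak or belong to a group described in full. Alternatives were a fold enrichment of at least 2, a false discovery rate under 1e-05, structural subunits only, other overlap, position and ratio limits, percentile ranks and matching by position. Leaving out genes with named pseudogenes was added after seeing the data. The values of 1 gene that the counts include are not reported here.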

Additional observations from a re-analysis of the deposited data

How the results depend on the processing

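No paired analysis was possible because the lists combine the replicates of a genotype, and leaving out a replicate was not possible for the same reason. Over 11 results and 69 alternatives, 64 values stayed within 1.5 times the count or inside the interval of the value reported, 5 moved and 0 reversed. With structural subunits only, genes listed in Wtap flox/flox only numbered 1 in place of 3, and matched peaks over 2-fold lower in Wtap-HKO numbered 0 in place of 1; the genes left out of these counts were Ndufaf2 and Atp5s in the first and Ndufaf4 in the second. At a ratio of 1.5 in place of 2, 14 matched peaks were higher in Wtap-HKO and 2 lower, as a lower limit must give no fewer. As a difference of percentile ranks within each list, the median of the matched peaks was 19.6 percentile points higher in Wtap-HKO, on another scale than the log2 ratio of 0.80. The median log2 ratio was 0.76 to 0.86 under the other alternatives. Without the members that have pseudogenes named after them, an alternative added after seeing the data, it was 0.78. Pseudogenes that carry other names were not looked for, so reads shared with such copies were not tested. Read depth, replicate spread and the reads behind each peak are not in the lists, so a peak listed in 1 genotype only may have missed the caller's limit in the other.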

Other observations

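Genes that serve the respiratory chain without being among its named subunits were looked up from 4 fixed lists. Of 44 genes for the assembly of the complexes, 35 had a peak, 34 in controls and 29 in Wtap-HKO. Of these, 6 were in controls only and 1 in Wtap-HKO only. Over all genes with a peak in either genotype, 7.99% were in controls only and 22% in Wtap-HKO only. The 26 matched pairs of the assembly genes had a median log2 ratio of -0.56, with 10 higher and 16 lower in Wtap-HKO. Position split them too. Near the 5′ end 9 of 12 were higher, with a median of 0.63, and elsewhere 13 of 14 were lower, with a median of -1.08. Over the pairs of all genes, 85.2% were higher near the 5′ end (median 0.82) and 45% elsewhere (median -0.10). Of 20 regulators of respiratory chain expression, 15 had a peak, and 21 of their 25 matched pairs were lower in Wtap-HKO (median -0.61). Away from the 5′ end lay 24 of these 25 pairs. Several pairs share a gene, as Twnk had 5 peaks in each genotype, and Pprc1 had 5 in controls and 4 in Wtap-HKO. Of 22 genes for electron transfer and carriers, 17 had a peak, and their 8 matched pairs divided evenly, 4 higher and 4 lower (median 0.02). Differential peaks were listed for 17 of the 35 assembly genes with a peak, 5 of the 15 regulators and 12 of the 17 electron transfer genes. Of all genes with a peak in any list, 27.9% had a differential peak.

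The 5 matched pairs with the largest ratio in size belonged to 5 genes. Tfam, which packages mitochondrial DNA, had 1.93 in controls and 8.09 in Wtap-HKO at one matched peak (log2 ratio 2.07) and 9.9 and 6.47 at another, in the opposite direction (-0.61). Sco1, a copper chaperone of complex IV, had 14.5 and 3.47 (-2.06). Tfb1m, a methyltransferase of mitochondrial ribosomal RNA, had 10.8 and 2.87 (-1.91). Nubpl, which delivers iron-sulfur clusters to complex I, had 7.25 and 2.38 (-1.61), although its peak lay near the 5′ end. Etfa, of the electron transfer flavoprotein, had 4.26 and 12.8 (1.59), also near the 5′ end. Of the 13 subunits encoded in mitochondrial DNA, 4 had a listed peak, with 2 of 6 matched pairs higher in Wtap-HKO and a median log2 ratio of -0.05. How reads of nuclear copies of mitochondrial genes enter these values was not tested.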
